A study of Mus musculus with 12 samples.

Results

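The genes described here are 10 mouse transporters of bile acids and other organic anions. Hepatocytes take up bile acids and other organic anions from portal blood and pass them on into bile. Slc10a1 (NTCP) carries conjugated bile acids in with sodium, and the organic anion transporting polypeptides Slco1a1, Slco1a4, Slco1b2 and Slco2b1 carry bile acids, bilirubin, steroid conjugates and many drugs without it. At the canalicular membrane Abcb11 (BSEP) exports bile salts, Abcb4 (MDR2) turns out phospholipid and Abcc2 (MRP2) exports conjugated organic anions, while Abcc3 (MRP3) and Abcc4 (MRP4) in the basolateral membrane return such conjugates to blood. The genes were chosen by name, as the transcript clusters whose annotation holds exactly 1 gene symbol and where that symbol is on the list. Each of the 10 genes had 1 such cluster, so that 10 of 35556 clusters, and 10 of 19938 genes with a cluster of their own, are described here, and 0 clusters with several symbols named any of them.

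Expression was measured on 12 Affymetrix mouse gene arrays in 6 title groups of 2 arrays each, named 1 (arrays 1-3 and 1-5), 6K, 6Y, 16Y, 42WKK and 42Y. The study used KK mice and KK-Ay mice, a line with the agouti allele A-y on the KK background that grows obese and diabetic, and its methods describe liver from mice aged 42 weeks. The series' design text puts 6Y, 16Y and 42Y with diabetes and 1, 6K and 42WKK with the controls, whereas the sample annotation calls 6K diabetic and 42Y control and gives the tissue as blood. Sex, the strain of 1-3 and 1-5 and the ages of groups other than 42WKK and 42Y are not given in the sources used here, and whether the number in a title is an age is not stated. For that reason the groups are called by their titles throughout. No drug or diet differed between groups as far as these sources state. No source says that the 2 arrays of a group came from separate mice, so p-values measure the spread between arrays, which may be technical.

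The agouti transcript itself was high in every array of 6Y, 16Y and 42Y (6.78 to 7.06 on the log2 scale) and low in every array of 1, 6K and 42WKK (5.20 to 5.51), which follows the design text and not the sample annotation. The 6 hepatocyte markers had a median log2 signal between 13.06 and 13.34 in the 12 arrays. The markers of T cells (3 of 4 measured) and B cells (3 of 4 measured) had medians of 3.39 to 4.29 and 2.78 to 3.50. Of the 5 erythroid markers 2 were measured, Alas2 at 9.28 to 9.81 and Slc4a1 at 4.75 to 5.79. These lists are different probes, whose brightness cannot be ranked, so their values are given as a description. For scale, the medians of the 12 arrays over all clusters were 4.74 to 4.88, and the hepatocyte medians lay far above them in every array. Whether the tissue was liver or blood was not tested further. All values are log2 signals after robust multi-array averaging (RMA). A brighter probe set does not mean a more abundant transcript, so levels are compared between arrays and never between genes. In whole tissue, fewer hepatocytes and less RNA per hepatocyte cannot be told apart.

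Slc10a1 was bright and nearly level over the series. It read 12.03 and 11.89 in group 1, 11.95 and 11.81 in 6K, 11.96 and 11.90 in 6Y, 11.97 and 11.82 in 16Y, 11.83 and 11.99 in 42WKK, and 11.65 and 11.68 in 42Y. Both 42Y arrays lay below all 10 others, and the other 5 groups overlapped. The 42Y mean was 0.24 log2 units under the 42WKK mean (log2 fold change −0.24, SE 0.11, adjusted p = 0.304 by limma), which did not pass the threshold of 0.05. Among all clusters, 3.07% had both 42Y arrays below the 10 others, and Slc10a1 was the only member of which this held.

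Slco1a1, Slco1a4 and Slco1b2 each had their highest pair of values in 42WKK. Slco1a1 read 11.47 and 11.51 in 42WKK, against 11.00 and 10.92 in group 1, 11.06 and 11.16 in 6K, 11.24 and 11.07 in 6Y, 10.84 and 10.70 in 16Y, and 10.58 and 11.00 in 42Y. Slco1a4 read 6.15 and 6.13 in 42WKK, against 5.17 and 5.17 in group 1, 4.89 and 4.73 in 6K, 5.27 and 5.05 in 6Y, 5.74 and 5.05 in 16Y, and 5.19 and 4.85 in 42Y. Slco1b2 read 11.26 and 11.41 in 42WKK, against 10.94 and 10.81 in group 1, 11.07 and 11.01 in 6K, 11.12 and 10.91 in 6Y, 11.19 and 11.21 in 16Y, and 10.75 and 11.14 in 42Y. For each of the 3 genes both 42WKK arrays lay above all 10 other arrays, a pattern seen in 5.15% of all clusters. The Slco1a4 signal was dim, with its mean at the 57.8th percentile of all clusters. The 42Y arrays of Slco1a1 and Slco1b2 were apart from each other by more than the arrays of any other group of the same gene, with array 42Y-1 the lower one.

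**Figure D1:**
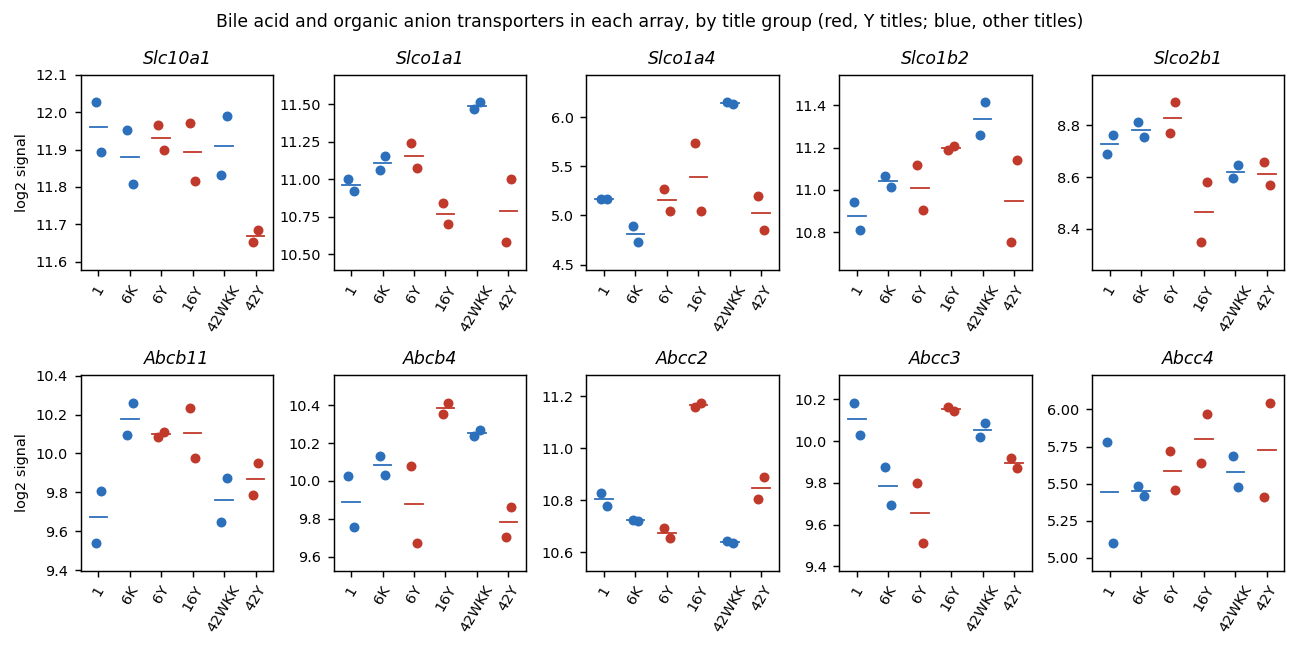
Log2 signal (vertical axis, a separate scale in each panel) of the 10 transporter genes in the 12 arrays, by title group (horizontal axis); points are arrays and bars the mean of 2. Slco1a1, Slco1a4 and Slco1b2 were highest in both 42WKK arrays, Abcb4 and Abcc2 in both 16Y arrays, and Slc10a1 was lowest in both 42Y arrays.

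These 3 genes stand close together on one chromosome, and the 250 bases before the start site of each in RefSeq (assembly GRCm38.p6, written 5′ to 3′ on the gene's strand) are given because the genes share their highest group. Slco1b2 lies on the plus strand (chr6:141629268-141629517), and Slco1a4 (chr6:141856221-141856470) and Slco1a1 (chr6:141946963-141947212) lie on the minus strand. For Slco1b2 and Slco1a4 the start site used lies inside the annotated gene (141629452 to 141686646 and 141805438 to 141856284). Their windows therefore overlap the gene. Capitals mark matches on either strand to the 5 motifs searched.
Slco1b2: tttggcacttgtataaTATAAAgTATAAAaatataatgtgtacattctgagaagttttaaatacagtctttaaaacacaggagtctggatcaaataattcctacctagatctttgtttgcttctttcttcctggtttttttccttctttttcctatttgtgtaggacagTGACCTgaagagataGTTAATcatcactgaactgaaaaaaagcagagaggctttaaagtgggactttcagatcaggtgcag
Slco1a4: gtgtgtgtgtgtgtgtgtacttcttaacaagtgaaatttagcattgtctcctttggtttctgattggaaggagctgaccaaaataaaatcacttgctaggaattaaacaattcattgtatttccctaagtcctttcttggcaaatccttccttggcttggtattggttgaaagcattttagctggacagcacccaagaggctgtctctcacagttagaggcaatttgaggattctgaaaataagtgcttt
Slco1a1: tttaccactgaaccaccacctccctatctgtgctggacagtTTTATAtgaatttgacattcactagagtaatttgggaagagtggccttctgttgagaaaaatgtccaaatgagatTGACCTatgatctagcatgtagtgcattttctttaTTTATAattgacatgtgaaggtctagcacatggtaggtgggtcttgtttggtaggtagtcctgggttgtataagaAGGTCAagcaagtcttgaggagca

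The motifs were the E-box CACGTG, read by clock proteins, the nuclear receptor half-site AGGTCA, the HNF1 half-site GTTAAT, the TATA motif TATAAA and the core of the antioxidant response element, TGACNNNGC. They occur in 6.04%, 14.0%, 6.47%, 12.3% and 10.2% of 32536 distinct windows of 250 bases. Slco1b2 held 1 nuclear receptor half-site, at −81 (read on the minus strand), 1 HNF1 half-site at −66 and 2 TATA matches. Slco1a1 held 2 nuclear receptor half-sites, at −24 and −134, and 2 TATA matches, and Slco1a4 held 0 matches to any of the 5. The 3 neighbours therefore shared no motif of those searched, although Slco1b2 and Slco1a1 shared the nuclear receptor and TATA letters. Such a match is a run of letters and not a site in use, and nothing measured on these arrays bears on the promoters themselves.

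The comparison of 42Y with 42WKK set a diabetes group of the design text, with high agouti, against a control group with low agouti. Both titles carry the number 42, and the methods describe KK-Ay and KK mice aged 42 weeks. Slco1a4 was the 1 of 10 members that passed the threshold. It fell by 1.12 on the log2 scale (2.17-fold lower in 42Y, SE 0.21, 95% interval −1.61 to −0.63, adjusted p = 0.0436 by limma with Benjamini-Hochberg adjustment over all clusters). In the same comparison 1.85% of all clusters were called. Slco1a1 differed by −0.70 (1.62-fold lower, SE 0.14, adjusted p = 0.0528 by limma), just outside the threshold. Slco1b2 differed by −0.39 (SE 0.14), Abcb4 by −0.47 (SE 0.15) and Abcc2 by 0.21 (SE 0.09), and none of the 3 passed (limma adjusted p of 0.215, 0.162 and 0.267). With these 2 Slco1a genes they make 5 of 10 members with an unadjusted p under 0.05, where 17.3% of all clusters had one. The arrays of the 2 groups did not overlap for 7 members, 6 lower and 1 (Abcc2) higher in 42Y, beside 47.8% of all clusters. Over the 10 members the log2 fold change had a median of −0.20, where that of all clusters was 0.02.

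The intervals were widest for Abcc4 (−0.46 to 0.75) and left Abcb11 (−0.22 to 0.44) and Slco2b1 (−0.25 to 0.24) on either side of 0. The Slco1a4 call rested on a spread pooled over the 12 arrays. Leaving out 1 array at a time kept it only without array 16Y-1 or 16Y-2, and without any of the 10 other arrays the adjusted p by limma lay between 0.0641 and 0.210, with log2 fold changes of −1.29 to −0.95. With arrays 1-3 and 1-5 in place of 42WKK as the controls, Slco1a4 differed from 42Y by only −0.15 (adjusted p = 0.761 by limma).

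**Figure D2:**
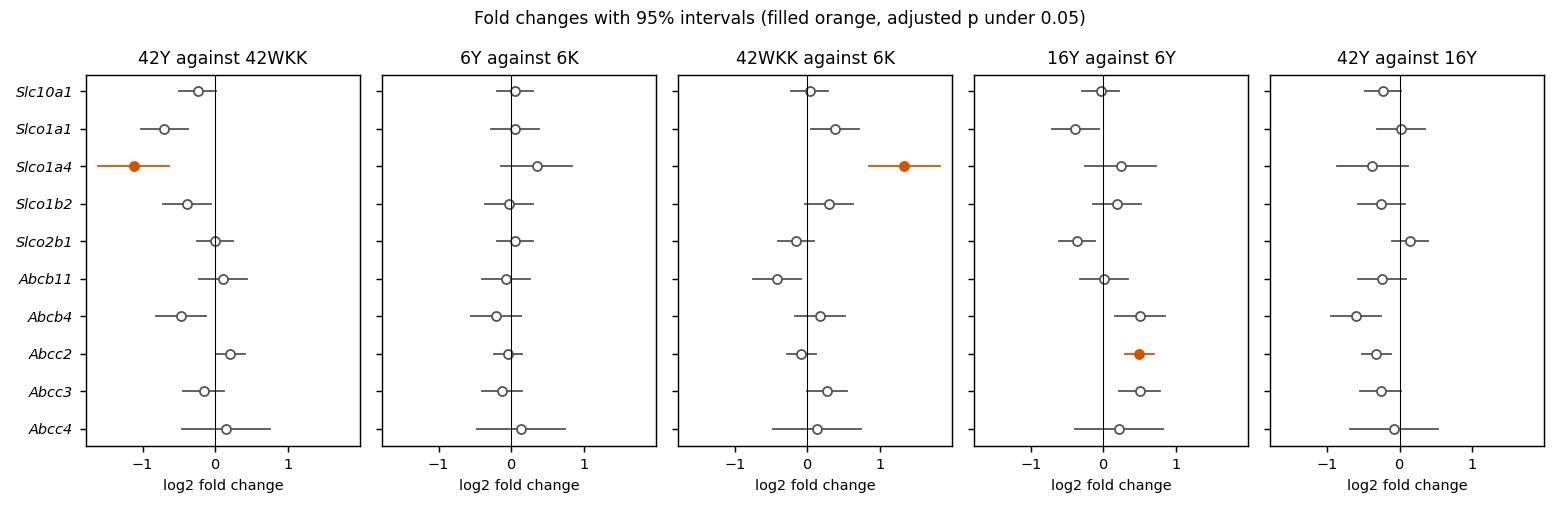
Log2 fold change (horizontal axis) of each transporter gene (vertical axis) in 5 comparisons of title groups, with 95% intervals from limma over 12 arrays; filled orange points passed an adjusted p of 0.05. Slco1a4 passed in 42Y against 42WKK (−1.12) and in 42WKK against 6K (1.33), and Abcc2 in 16Y against 6Y (0.49).

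Between 6Y and 6K, the other pair that shares a number in its titles and differs in agouti, 0 of 10 members passed by limma and 0 had an unadjusted p under 0.05. Over all clusters 0.00281% were called, which is 1 cluster, that of agouti, and 5.28% had an unadjusted p under 0.05. The log2 fold changes of the members ran from −0.21 for Abcb4 to 0.35 for Slco1a4. The arrays of 6Y and 6K did not overlap for 2 members, Slco1a4 (higher in 6Y) and Abcc2 (lower in 6Y), beside 35.4% of all clusters. The difference between the 2 contrasts was tested as an interaction. It passed for 0 of 10 members by limma (0.143% of all clusters did), and 2 had an unadjusted p under 0.05, Slco1a4 at −1.47 (SE 0.30, adjusted p = 0.111 by limma) and Slco1a1 at −0.75 (SE 0.20), against 13.2% of all clusters. Averaged over the 3 Y titles against the 3 others, 0 of 10 members passed by limma (0.208% of all clusters did). Of the members 2 had an unadjusted p under 0.05 there, Slco1a1 at −0.28 and Abcc2 at 0.18, against 12.3% of all clusters.

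The 42WKK and 6K groups are both controls in the design text. Slco1a4 was 2.52-fold higher in 42WKK than in 6K (log2 fold change 1.33, SE 0.21, 95% interval 0.84 to 1.82, adjusted p = 0.0343 by limma), the 1 of 10 members that passed, where 1.01% of all clusters were called. The comparison shares the 42WKK arrays with that of 42Y, so that the high 42WKK values enter both with opposite sign. Slco1a1 was higher by 0.38 (SE 0.14) and Abcb11 lower by 0.42 (log2 fold change −0.42, SE 0.14), and with Slco1a4 they were the 3 members with an unadjusted p under 0.05, beside 15.0% of all clusters. The arrays did not overlap for 8 members, 5 higher and 3 lower in 42WKK, beside 50.0% of all clusters. Without any 1 array of groups 1, 6K, 6Y or 42WKK the Slco1a4 call was lost (adjusted p 0.0556 to 0.189 by limma), and without any 1 array of 16Y or 42Y it was kept.

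Genes of several other lists are given for the same groups, without a reading of cause. Cyp2b10, the standard target of the nuclear receptor CAR, read 7.69 and 8.20 in 42WKK, 9.46 and 9.34 in 6K and 11.02 and 10.88 in 42Y. Slco1a4, itself counted among CAR and PXR targets in mouse liver, thus had its highest arrays where Cyp2b10 had its lowest. The lowest Slco1a4 mean was in 6K, where Cyp2b10 was neither highest nor lowest. Cyp2b10 read 11.16 and 10.86 in group 1, also a control group of the design text. Cyp3a11, another listed target, read 13.10 and 13.02 in 42WKK and 12.67 and 12.74 in 42Y (log2 fold change −0.35, SE 0.11, adjusted p = 0.1425 by limma). Over that list 4 fold changes of 42Y against 42WKK were above 0 and 2 below. Cyp2b10 was the 1 of 6 measured CAR and PXR targets called in 42Y against 42WKK (log2 fold change 3.00, SE 0.18, adjusted p = 0.000556 by limma), and 4 of the 6 had an unadjusted p under 0.05. Of 6 measured targets of NRF2, the oxidative stress factor, 0 passed there by limma, with 2 at an unadjusted p under 0.05. Of 7 measured genes that are higher in male liver, a class to which Slco1a1 belongs, Elovl3, a fatty acid elongase, fell by 1.42 on the log2 scale (SE 0.11, adjusted p = 0.00186 by limma) and the other 6 did not pass. The fold changes of 6 of these 7 genes were below 0, and 5 had an unadjusted p under 0.05. The member Slco1a1 (−0.70) is itself 1 of the 7 and is in both counts. Of 5 measured genes that are higher in female liver, 3 had fold changes above 0 and 2 below. Among these 5, 0 passed by limma and 1 had an unadjusted p under 0.05. Over all clusters in this comparison, 1.85% were called and 17.3% had an unadjusted p under 0.05. The clock genes moved as well. Of 11 measured genes of the phase led by Dbp and Nr1d1, 9 had fold changes above 0 in 42Y and 5 were called higher. Of 3 measured genes of the opposite phase 2 were called lower, Arntl at −2.04 (SE 0.09, adjusted p = 0.000293 by limma). The part of collection time or of any of these factors in the Slco1 values was not tested.

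Along the chromosome the order in RefSeq runs from Pde3a through Slco1c1, Slco1b2, Gm5724, Slco1a4, Slco1a1, Gm6614, Slco1a6 and Slco1a5 to Gys2, with 5 other genes before the last. Gm5724 had no cluster of its own here. Gys2, the liver glycogen synthase at the far end of this stretch, read 10.11 and 10.11 in 42WKK, 9.53 and 9.32 in 6K and 9.12 and 9.38 in 42Y, so that its mean was 0.86 log2 units lower in 42Y than in 42WKK (difference −0.86). The Slco1-like gene Gm6614 was lower in 42Y by 0.79 (difference −0.79) but was also lower in 42WKK than in 6K (difference −0.43), unlike the 3 members. Slco1a6 (2.37 to 3.00 over the 12 arrays) and Slco1a5 (3.18 to 3.91) had low signals throughout, and their means differed as those of the 3 members did, lower in 42Y than in 42WKK (differences −0.38 and −0.26) and higher in 42WKK than in 6K (0.44 and 0.33). The 5 genes between Slco1a5 and Gys2 differed between 42Y and 42WKK by −0.13 to 0.35. Near-identical copies within this gene family can share probe sequence, and the design of the probes was not examined here.

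**Figure D3:**
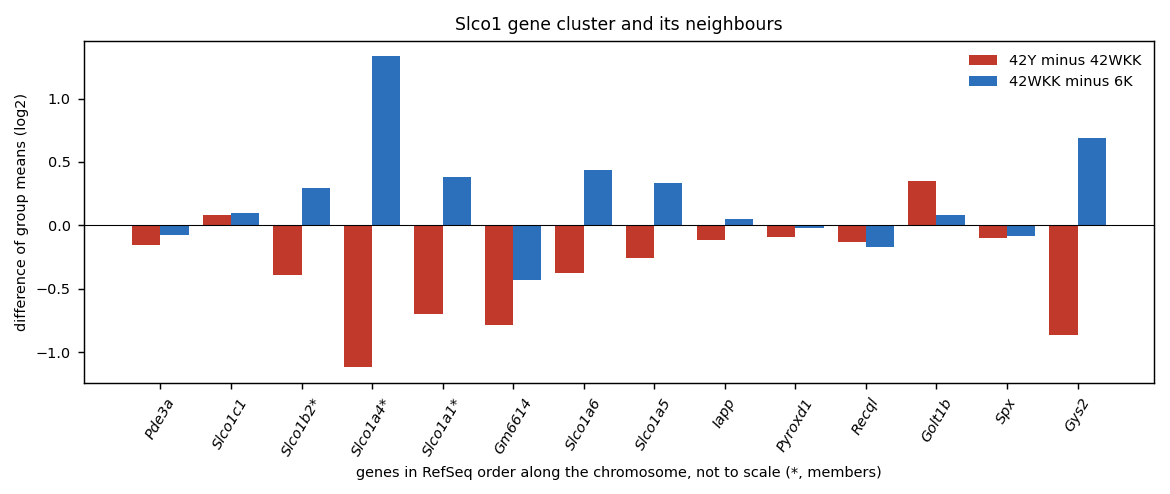
Difference of group means in log2 units (vertical axis) for 14 measured genes in RefSeq order around the Slco1 cluster (horizontal axis, not to scale), for 42Y minus 42WKK (red) and 42WKK minus 6K (blue); bars rest on 2 arrays a group and carry no error. Slco1b2, Slco1a4, Slco1a1, Slco1a6, Slco1a5 and, further along, Gys2 were all lower in 42Y than in 42WKK and higher in 42WKK than in 6K.

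Slco2b1 did not share the high 42WKK values of Slco1a1, Slco1a4 and Slco1b2. It read 8.69 and 8.76 in group 1, 8.81 and 8.76 in 6K, 8.77 and 8.89 in 6Y, 8.35 and 8.58 in 16Y, 8.59 and 8.65 in 42WKK, and 8.66 and 8.57 in 42Y. The lowest array of groups 1, 6K and 6Y (8.69) was only just above the highest of 16Y, 42WKK and 42Y (8.66). That grouping was picked after the values were seen, and the share of all clusters that show it was not computed. The Slco2b1 mean in 16Y was 0.36 log2 units under that of 6Y (log2 fold change −0.36, SE 0.11, adjusted p = 0.129 by limma), and 42Y and 42WKK differed by −0.01 (SE 0.11).

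Among the canalicular exporters, Abcb4 and Abcc2 had their highest pair of values in 16Y. Abcc2 read 11.16 and 11.18 in 16Y, against 10.83 and 10.78 in group 1, 10.73 and 10.72 in 6K, 10.70 and 10.66 in 6Y, 10.65 and 10.64 in 42WKK, and 10.80 and 10.89 in 42Y. Abcb4 read 10.36 and 10.41 in 16Y, against 10.03 and 9.75 in group 1, 10.13 and 10.03 in 6K, 10.08 and 9.67 in 6Y, 10.24 and 10.27 in 42WKK, and 9.70 and 9.86 in 42Y. Both 16Y arrays exceeded all 10 others for these 2 members, as for 3.82% of all clusters. For Abcc2 both 42WKK arrays also lay below all 10 others, as for 4.90% of all clusters. Abcb11 read 9.54 and 9.81 in group 1, 10.09 and 10.26 in 6K, 10.08 and 10.11 in 6Y, 10.23 and 9.98 in 16Y, 9.65 and 9.87 in 42WKK, and 9.79 and 9.95 in 42Y. The lowest Abcb11 array of 6K, 6Y and 16Y (9.98) was only just above the highest of group 1, 42WKK and 42Y (9.95). That grouping cuts across agouti. It was picked after the values were seen, and the share of all clusters that show it was not computed.

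The 16Y and 6Y groups share the high agouti signal. Abcc2 was the 1 of 10 members that passed the threshold between them, 1.41-fold higher in 16Y (log2 fold change 0.49, SE 0.09, 95% interval 0.30 to 0.69, adjusted p = 0.0370 by limma), where 1.78% of all clusters were called. The means of 7 members were higher in 16Y and those of 3 lower. Abcb4 at 0.51 (SE 0.15), Abcc3 at 0.50 (SE 0.12), Slco2b1 at −0.36 and Slco1a1 at −0.39 (SE 0.14) were the other members with an unadjusted p under 0.05, 5 of 10 in all, beside 18.1% of all clusters. The fold change of Abcb4 was as large as that of Abcc2 with a wider error (adjusted p = 0.130 by limma). The arrays did not overlap for 6 members, 4 higher and 2 lower in 16Y, beside 49.4% of all clusters, and the members' median log2 fold change was 0.20 where that of all clusters was 0.04. The Abcc2 call held without array 42Y-1 or 42Y-2 and was lost without any 1 of the 10 other arrays (adjusted p 0.0578 to 0.158 by limma). It was also lost when each array was centred on its median.

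Between 16Y and 42Y, 0 of 10 members passed by limma (0.399% of all clusters did). The 2 with an unadjusted p under 0.05 were Abcb4, lower in 42Y by 0.60 (log2 fold change −0.60, SE 0.15, adjusted p = 0.128 by limma), and Abcc2, lower by 0.32 (log2 fold change −0.32, SE 0.09, adjusted p = 0.150 by limma), beside 13.9% of all clusters. The arrays did not overlap for 6 members, all of them lower in 42Y, beside 42.1% of all clusters.

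The 250 bases before the start site of Abcc2, on the plus strand at chr19:43782058-43782307 (RefSeq, GRCm38.p6), are given because Abcc2 was the exporter that passed, with matches to the motifs above in capitals.
Abcc2: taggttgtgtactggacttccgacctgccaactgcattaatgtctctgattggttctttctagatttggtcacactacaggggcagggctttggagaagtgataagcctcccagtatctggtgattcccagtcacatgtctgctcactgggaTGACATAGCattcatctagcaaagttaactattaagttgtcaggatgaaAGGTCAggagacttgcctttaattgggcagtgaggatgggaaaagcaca

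The window held the antioxidant response core as TGACATAGC at −98 and a nuclear receptor half-site at −49, both on the plus strand, and no E-box. RefSeq windows were at hand for 9 of the 10 members, all but Abcc3.

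Other genes moved between 6Y and 16Y beside Abcc2. Cyp2b10 read 11.55 and 11.55 in 16Y against 9.65 and 9.48 in 6Y (log2 fold change 1.98, SE 0.18, adjusted p = 0.00678 by limma), while Ces2a, a carboxylesterase counted among targets of the same receptors, fell by 0.84 (SE 0.15, adjusted p = 0.0402 by limma). Those were the 2 of 6 measured CAR and PXR targets called, in opposite directions, and 0 of 6 NRF2 targets passed by limma (2 at an unadjusted p under 0.05). All 4 markers of sinusoidal endothelium, all 5 stellate cell markers and all 5 Kupffer cell markers had fold changes below 0. Those called were Clec4g and Lyve1 of the endothelial list (log2 fold changes −1.20 and −1.36) and Col3a1 of the stellate list (−1.17). The median of the endothelial list was 6.85 and 6.98 in 16Y against 7.49 and 7.82 in 6Y, and that of the stellate list 5.95 and 6.01 against 6.65 and 7.25. The hepatocyte list had medians of 13.06 and 13.09 in 16Y and 13.32 and 13.25 in 6Y, with all 6 fold changes below 0 and 0 of 6 called by limma (2 at an unadjusted p under 0.05). All 11 clock genes of the Dbp and Nr1d1 phase had fold changes above 0 in 16Y, and 4 were called, Nr1d2 at 1.48 (SE 0.17, adjusted p = 0.0150 by limma). The part of cell makeup, collection time or nuclear receptor activity in the Abcc2 difference was not tested.

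The basolateral exporters gave no call. Abcc3 read 10.18 and 10.03 in group 1, 9.87 and 9.70 in 6K, 9.80 and 9.51 in 6Y, 10.17 and 10.15 in 16Y, 10.02 and 10.09 in 42WKK, and 9.92 and 9.87 in 42Y. The 4 arrays of 6K and 6Y were its lowest, together with array 42Y-2 at 9.87. It was higher in 16Y than in 6Y by 0.50 (SE 0.12, adjusted p = 0.0823 by limma). Abcc4 read 5.78 and 5.10 in group 1, 5.48 and 5.42 in 6K, 5.72 and 5.46 in 6Y, 5.64 and 5.97 in 16Y, 5.69 and 5.48 in 42WKK, and 5.41 and 6.04 in 42Y. No group stood apart from the others, and its spread within groups (SD 0.30) was wider than its spread over the 12 arrays (SD 0.26).

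As a description over the 12 arrays, Slco1b2 and Abcb4 were the member pair that ran most alike (Pearson r = 0.82), and Slco2b1 and Abcc2 the pair that ran most opposite (r = −0.71). Among 1229 genes with a mean log2 signal of at least 6 and an SD of at least 0.3, the one most like Slco1a1 was Psmg1, a proteasome assembly factor (r = 0.95), and the one most like Slco1a4 was Slc2a2, the hepatocyte glucose transporter GLUT2 (r = 0.86). Slco1b2 ran most like Cfhr3, a complement factor H related gene (r = 0.93), and Abcc2 most like Ubtd1 (r = 0.93). For Slc10a1 the second of these, after Trim7, was Cyp8b1, the sterol 12-alpha-hydroxylase that makes cholic acid (r = 0.82). These coefficients rest on 6 pairs of arrays that share group and RMA run, and genes with the same highest or lowest group score high.

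The rest of bile acid handling was read from lists of named genes. Of 13 measured genes of bile acid synthesis and conjugation, Cyp8b1 was the 1 called in 42Y against 42WKK, and 6 had an unadjusted p under 0.05. It read 8.03 and 8.42 in 42Y, 9.59 and 9.56 in 42WKK and 9.13 to 10.11 in the 8 other arrays, so that it fell by 1.35 on the log2 scale (SE 0.19, adjusted p = 0.0186 by limma). Both 42Y arrays lay below all others, as they did for Slc10a1. Cyp7a1, the rate-limiting enzyme of bile acid synthesis, varied widely within groups, reading 9.52 and 7.39 in group 1, 8.28 and 8.61 in 42WKK and 7.08 and 6.57 in 42Y, and did not pass.

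Of 20 other hepatic transporters measured, 2 passed in 42Y against 42WKK, both higher. The fold changes of 15 of the 20 were above 0, and 9 had an unadjusted p under 0.05, among them the sterol exporters Abcg5 (log2 fold change 0.62, SE 0.15) and Abcg8 (0.65, SE 0.20). Slc10a2 (ASBT), the sodium-dependent bile acid carrier best known from ileum and bile duct cells, read 10.10 and 9.63 in 42Y, 8.38 and 8.58 in 42WKK and 7.51 to 8.69 elsewhere (log2 fold change 1.38, SE 0.25, adjusted p = 0.0369 by limma). Of the 4 measured bile duct cell markers, 2 had fold changes above 0 and 2 below in the same comparison. Their median log2 fold change was 0.10, and 0 passed by limma. The part of bile duct cells in the Slc10a2 difference was not tested. Abca1, which loads cholesterol onto apolipoprotein A-I, read 9.94 and 9.54 in 42Y against 8.96 and 8.93 in 42WKK (log2 fold change 0.80, SE 0.15, adjusted p = 0.0437 by limma). Slc51b, the beta subunit of the basolateral bile acid exporter OST, passed in 42WKK against 6K, where it fell by 1.20 (SE 0.20, adjusted p = 0.0383 by limma). Slc22a5, the carnitine carrier OCTN2, passed in 16Y against 6Y with 7.89 and 8.21 against 6.19 and 6.09 (log2 fold change 1.91, SE 0.36, adjusted p = 0.0425 by limma). Each of the 4 was thus called in 1 comparison of the 7 run.

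Among the 14 measured regulators of these genes, 0 passed in any of the 7 comparisons by limma. Of all clusters 0.00281% to 1.85% passed, so that 0 of 14 is near the share of all clusters. Between 0 and 5 of the 14 had an unadjusted p under 0.05 in a comparison. Of all clusters 5.28% to 18.1% had one, and 17.3% in 42Y against 42WKK. In 42Y against 42WKK 7 of the 14 had a mean above and 7 below that of 42WKK. The 5 with an unadjusted p under 0.05 there were Hnf4a at 0.51 (SE 0.12), Ahr at 0.43 (SE 0.14), Rxra at 0.40 (SE 0.12), Nr5a2 at 0.31 (SE 0.11) and Nr1i3 at −0.68 (SE 0.27), with adjusted p of 0.0813 to 0.243 by limma. Nr1h4, the bile acid receptor FXR, read 9.04 and 8.69 in 42Y and 9.04 and 9.21 in 42WKK. Nr1i3, the receptor CAR, read 8.42 and 8.93 in 42Y and 9.29 and 9.43 in 42WKK, and Nr0b2, the repressor SHP, read 6.83 and 8.21 against 7.40 and 8.06.

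**Figure D4:**
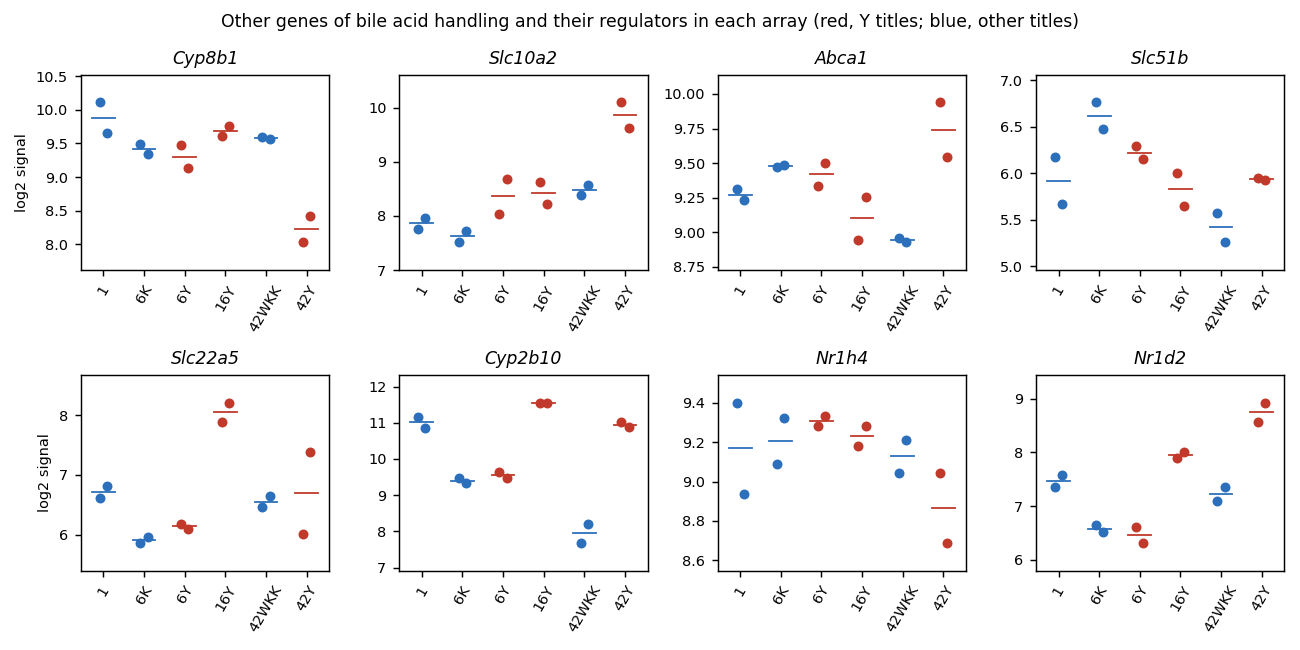
Log2 signal (vertical axis, a separate scale in each panel) of 8 other genes of bile acid handling, xenobiotic response and the clock in the 12 arrays, by title group (horizontal axis); points are arrays and bars the mean of 2. Cyp8b1 was lowest and Slc10a2 highest in both 42Y arrays, and Cyp2b10 was lowest in both 42WKK arrays.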

How the data were processed

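RNA from 12 mouse samples had been hybridised to Affymetrix mouse gene arrays, 1 array a sample. The deposited values are log2 signals per transcript cluster that the authors obtained with Affymetrix Expression Console 4.0 by RMA; the methods name an exon array and the platform annotation a gene array. The 12 array medians lay between 4.74 and 4.88, and no further normalization was applied. Replicates of a group correlated at 0.983 to 0.991. Arrays give no read depth, and 2 arrays a group limit the precision. Clusters were named from the platform annotation, updated by gene identifier to RefSeq symbols: 21789 had 1 symbol, 1621 several and 12146 none.

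Group means over the 12 arrays (6 residual degrees of freedom) were fitted in limma 3.58.1 (R 4.3.3), with empirical Bayes moderation and Benjamini-Hochberg adjustment over all 35556 clusters, and an adjusted p under 0.05 was called. The code was tested on simulated data. The 10 members, the gene lists and the tests were chosen with earlier results of these data known, so no list count is independent evidence. All members are named, and of the other lists the called genes and a few of known role, the latter chosen after their values were seen. The alternatives were other scalings, only clusters whose mean log2 signal reached 6, clusters with 1 symbol, a variance trend, fewer arrays, a replicate block and the ANOVA named by the study. No table of fold changes or p-values by the authors was used.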

Additional observations from a re-analysis of the deposited data

Results flagged for a closer look

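For Slco1a4 the 42Y arrays lay below the 42WKK arrays while the 6Y arrays lay above the 6K arrays, with no overlap on either side. The 6Y against 6K difference was small beside its error (log2 fold change 0.35, SE 0.21). The difference between the 2 contrasts was −1.47 on the log2 scale and did not pass (adjusted p = 0.111 by limma). For Abcc2 the directions were the other way round, higher in 42Y than in 42WKK and lower in 6Y than in 6K. The latter was almost no difference (log2 fold change −0.05, SE 0.09), and the difference between the contrasts was 0.25 (adjusted p = 0.419 by limma). Groups did not overlap for 47.8% of all clusters in 42Y against 42WKK and for 35.4% in 6Y against 6K. The share with opposite directions in both was not computed.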

How the results depend on the processing

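The log2 fold changes of Slco1a4 (42Y against 42WKK, 42WKK against 6K and the interaction) and of Abcc2 (16Y against 6Y) kept their direction in every alternative run, but the calls did not. In 42Y against 42WKK, where 1 member (Slco1a4) was called, 2 (Slco1a1 and Slco1a4) were called among clusters with exactly 1 gene symbol and also with a variance trend. Keeping clusters with a mean signal of at least 6 gave 1, but this was Slco1a1, as Slco1a4 was then not tested. The count was 0 with arrays of the compared groups alone, without the 6K arrays, and with arrays 1-3 and 1-5 as controls. A plain 2-group ANOVA gave 3 unadjusted (Slco1a4, Abcb4 and Abcc2) and 0 after Benjamini-Hochberg adjustment. In 16Y against 6Y, where 1 (Abcc2) was called, keeping clusters with a mean signal of at least 6 gave 4 (Slco2b1, Abcb4, Abcc2 and Abcc3). Clusters with 1 symbol and the variance trend each gave 2 (Abcc2 and Abcc3). Median centring, the compared groups alone and leaving out the 6K arrays each gave 0. In 42Y against 16Y, with 0 called, the filter gave 2 (Abcb4 and Abcc2) and the trend 1 (Abcc2). The interaction gave 1 (Slco1a4) among clusters with 1 symbol. In 42WKK against 6K, where 1 (Slco1a4) was called, the filter gave 0, since the mean of Slco1a4 is under 6 and it was not tested, and the compared groups alone gave 0. Leaving out each array in turn gave 0 to 1 called members in 42Y against 42WKK, in 16Y against 6Y and in 42WKK against 6K. Without array 42Y-2 the 1 called in 42Y against 42WKK was Slco1a1 and not Slco1a4 (adjusted p = 0.124 by limma). Replicate numbers did not pair the arrays (correlations of −0.036 to 0.055 between groups), and with a replicate block over 8 arrays 0 members were called in 16Y against 6Y (Abcc2 0.49, adjusted p = 0.158 by limma). Over all clusters the 659 calls in 42Y against 42WKK became 0 with the compared groups alone, 1721 with the filter and 1113 with the trend. The causes were not tested. Slco1a4 and Abcc4 were the dimmest members.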
